A study of Mus musculus with 29 samples.

Results

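Mouse CD4 T cells cultured into induced regulatory T (Treg) cells with a guide RNA against Smad3 (sgSmad3) were compared with the same kind of culture carrying a guide RNA against Smad2 (sgSmad2). The comparison rests on 4 of the 29 samples of the series, 2 RNA libraries with sgSmad3 and 2 with sgSmad2. It covers the 10211 genes that reached a value of 5 in reads per 1000000 counted reads (CPM) in at least 2 of these 4 libraries, out of 55421 gene IDs in the table. Of these genes, 183 reached that level in both libraries of 1 guide and in neither library of the other.

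Every guide group came from naive splenic CD4 T cells of C57BL/6 mice, cultured for 5 days in the presence of hTGFb (human TGF-beta, 10 ng/ml) and IL-2 (15 ng/ml), with no drug added. The 4 groups were sgSmad3, sgSmad2, both guides together (sgSmad2/3) and a control called no-guide here, with 2 libraries each. The labels of that control name no guide and do not say whether it carried a control guide. Values given as without a guide are those of this control. A separate set of libraries without guides held 3 libraries of Treg cells from this kind of culture and 3 of Th0 cells, which had IL-2 at 15 ng/ml for 5 days without TGF-beta. Libraries were made from TRIzol total RNA by QuantSeq 3' mRNA-Seq FWD, a method in which each read is a tag from near the 3' end of a transcript, so the data give gene levels and no transcript structure. Not given in the sources used here are the guide sequences, how Cas9 was supplied and what share of cells was edited. Nothing in the labels ties a replicate to its own mouse or culture, so p-values measure only how far these libraries spread, and that spread may be technical.

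SMAD2 and SMAD3 are the receptor-regulated SMAD proteins of the TGF-beta pathway. The activated TGF-beta receptor phosphorylates both, they join SMAD4 and enter the nucleus, and there they regulate transcription with partner factors. SMAD3 binds DNA directly, whereas the main splice form of SMAD2 carries an insert that hinders DNA binding. In CD4 T cells TGF-beta with IL-2 induces Foxp3, the lineage factor of Treg cells. Acsl6, one of the genes followed here, encodes a long-chain acyl-CoA synthetase, an enzyme that activates fatty acids for lipid synthesis.

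The sgSmad3 libraries held 1602297 and 1294583 reads, and the sgSmad2 libraries 1512629 and 1493190. A count of 0 allows up to 3 reads, which is 1.87 and 2.32 CPM in the sgSmad3 libraries and 1.98 and 2.01 CPM in the sgSmad2 libraries. The reads carry no molecular identifiers, so this limit covers counting error only. Replicates correlated at 0.960 for sgSmad3 and 0.958 for sgSmad2 (Pearson r of log2 values over the genes tested), and in all 4 groups they differed by more than counting noise. Replicate 1 of sgSmad3 stood apart in several ways. Gm42418, a locus overlapping ribosomal RNA, took 4.81% of its CPM, against 5.85% to 7.60% in the other 7 libraries. The genes of the mitochondrial genome summed to 22180 CPM in it, against 13613 to 17161 CPM in the others, and Cd4 stood at 318 CPM, against 80 to 200 CPM.

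The targeted genes were examined first. Smad3 stood at 26 and 25 CPM in the sgSmad3 libraries, against 44 and 56 CPM in the sgSmad2 libraries, with 41 and 37 CPM in the sgSmad2/3 libraries and 30 and 34 CPM in the no-guide libraries. The sgSmad3 libraries were the lowest of the 8, with a log2 difference from sgSmad2 of -0.93 (SE 0.230, adjusted p = 0.27), but the double-guide libraries were not low. Smad2 stood at 25 and 30 CPM in the sgSmad3 libraries, against 12 and 24 CPM in the sgSmad2 libraries, with 13 and 18 CPM in the sgSmad2/3 and 37 and 29 CPM in the no-guide libraries. All 4 libraries with a Smad2 guide lay below all 4 without one, and the log2 difference of sgSmad3 from sgSmad2 did not pass the test (0.66, SE 0.325, adjusted p = 0.56). A cut by Cas9 need not lower the messenger RNA, and where the guides cut relative to the 3' tag is not given, so these levels check neither label.

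Foxp3 stood at 198 and 257 CPM in the sgSmad3 libraries, against 214 and 393 CPM in the sgSmad2 libraries, with 189 and 195 CPM in the sgSmad2/3 and 177 and 320 CPM in the no-guide libraries. The groups overlapped, and the log2 difference of -0.36 (SE 0.272, adjusted p = 0.74) has a 95% interval from -0.94 to 0.22. Without sgSmad2 replicate 2, the highest of the 8 libraries, the difference turned to 0.076. Every library thus held the defining transcription factor of the labelled cell type, and Il2ra, the high-affinity chain of the IL-2 receptor, stood between 1517 and 1897 CPM in all 8. In the separate set Foxp3 stood at 138, 191 and 207 CPM in Treg and 13.8, 8.88 and 8.57 CPM in Th0 libraries. It stood at 82.7, 91.7 and 88.8 CPM in naive CD4 T cell libraries of that set. The presence of Foxp3 alone therefore does not tell induced Treg cells from naive cells.

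Of the 10211 genes tested, 5 were called between the guides (0.0490%), and all 5 were lower with sgSmad3. They were Acsl6, Cd40, Ncmap, Endod1 and Fchsd2, each between 2.14-fold and 3.15-fold lower on the log2(CPM + 1) scale, where the added 1 makes changes of scarce transcripts look smaller. No gene was called higher with sgSmad3 (0 of 10211, 0%). Calls are limma's moderated test over the 8 guide and no-guide libraries at a Benjamini-Hochberg adjusted p under 0.05. Without adjustment, 951 genes (9.31%) had a p under 0.05, 533 (5.22%) higher and 418 (4.09%) lower with sgSmad3, and the median log2 difference over all genes was 0.016. Single libraries moved these unadjusted counts, to 191 higher and 336 lower without sgSmad3 replicate 1 and to 901 higher and 540 lower without sgSmad2 replicate 2.

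**Figure D1:**
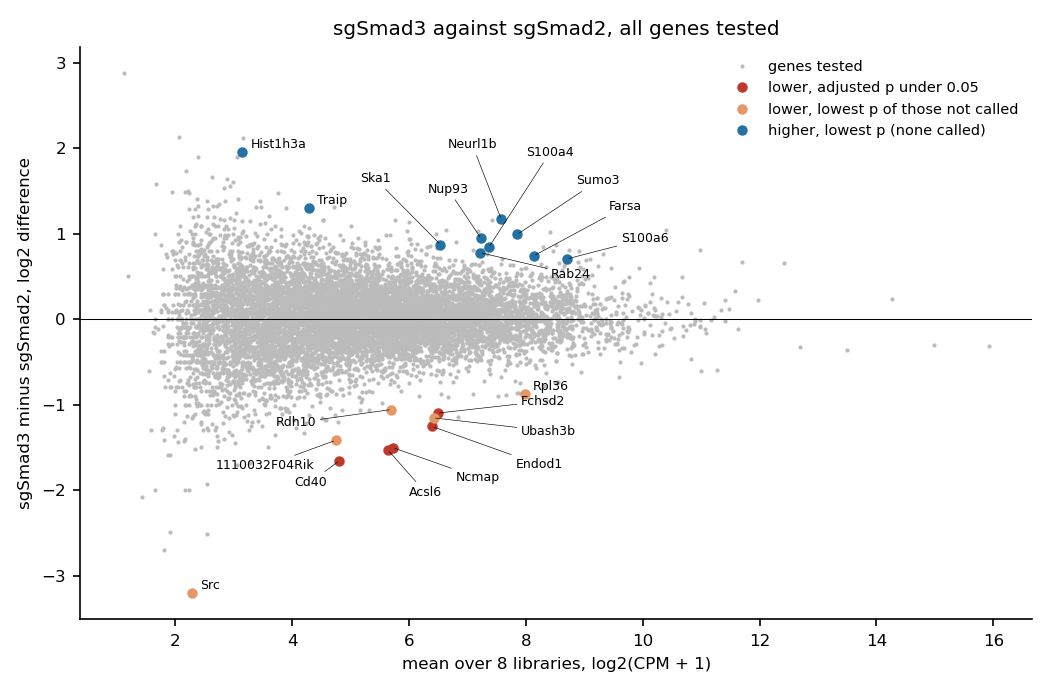
Log2 difference of sgSmad3 minus sgSmad2 (vertical axis) against the mean log2(CPM + 1) over the 8 libraries (horizontal axis) for the 10211 genes tested, each a point. The 5 called genes lie between -1.66 and -1.10, and the genes named above the zero line were not called.

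Acsl6 (ENSMUSG00000020333) had the lowest p of all genes. It stood at 27 and 27 CPM in the sgSmad3 libraries, against 82 and 78 CPM in the sgSmad2 libraries, with 31 and 43 CPM in the sgSmad2/3 libraries and 75 and 68 CPM in the no-guide libraries. All 4 libraries with a Smad3 guide lay below all 4 without one, whereas the sgSmad2 libraries lay above the no-guide ones. The log2 difference of sgSmad3 from sgSmad2 was -1.53 (SE 0.216, adjusted p = 0.029), a 2.89-fold lower level. Against the no-guide libraries Acsl6 fell by 1.37 with sgSmad3 (adjusted p = 0.029), differed by 0.16 with sgSmad2 (SE 0.216) and by -0.95 with sgSmad2/3 (adjusted p = 0.070). The double guide differed from sgSmad3 alone by 0.42 (95% interval -0.04 to 0.88).

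Cd40 encodes a receptor of the TNF receptor family, best known on antigen-presenting cells. Its level was 18 and 15 CPM with sgSmad3, against 53 and 55 CPM with sgSmad2, with 11 and 17 CPM with sgSmad2/3 and 42 and 43 CPM without a guide. The 2 groups with a Smad3 guide overlapped each other and lay far below the other 4 libraries. The log2 difference of sgSmad3 from sgSmad2 was -1.66 (SE 0.264, adjusted p = 0.041), the largest of the 5. B cells and myeloid cells also carry CD40. The 12 B cell markers summed to 106 and 77 CPM with sgSmad3, against 79 and 92 CPM with sgSmad2, with 94 and 66 CPM with sgSmad2/3 and 103 and 99 CPM without a guide, most of it Ighm (60 to 94 CPM), with Ms4a1 at 0 throughout. Bank1, a B cell adaptor, had 1 and 2 CPM with sgSmad3, against 7 and 11 CPM with sgSmad2, with 1 and 3 CPM with sgSmad2/3 and 8 and 3 CPM without a guide, and it entered the test through the sgSmad2 libraries alone. The 12 myeloid markers summed to 56 and 10 CPM with sgSmad3, against 7 and 12 CPM with sgSmad2, with 21 and 73 CPM with sgSmad2/3 and 5 and 3 CPM without a guide, with Itgam and Cd14 at 0 throughout. The part of these cells in the Cd40 difference was not tested.

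Ncmap encodes a membrane protein known from the myelin of peripheral nerve. It had 32 and 39 CPM with sgSmad3, against 76 and 137 CPM with sgSmad2, with 31 and 37 CPM with sgSmad2/3 and 60 and 58 CPM without a guide. The sgSmad2 replicates differed most here, yet both exceeded all others. The log2 difference was -1.50 (SE 0.255, adjusted p = 0.048). Ncmap was the exception among the 5 in its distances from the no-guide libraries, which were alike in size and opposite in sign, -0.72 with sgSmad3 and 0.78 with sgSmad2, and neither passed the test.

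Endod1, which encodes a protein with an endonuclease domain, stood at 51 and 60 CPM with sgSmad3, against 136 and 131 CPM with sgSmad2, with 50 and 66 CPM with sgSmad2/3 and 117 and 107 CPM without a guide. Its log2 difference was -1.26 (SE 0.194, adjusted p = 0.041). Fchsd2 encodes an F-BAR and SH3 domain protein that works at membranes and on actin. It stood at 64 and 59 CPM with sgSmad3, against 127 and 139 CPM with sgSmad2, with 52 and 64 CPM with sgSmad2/3 and 123 and 141 CPM without a guide. Its log2 difference was -1.10 (SE 0.185, adjusted p = 0.048). For both genes the 4 libraries with a Smad3 guide lay together at about the same level, and the sgSmad2 and no-guide libraries lay together above them.

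In all 5 genes the 4 libraries with a Smad3 guide lay below the 4 without one. The double guide differed from sgSmad2 alone by log2 -1.11 for Acsl6, -1.90 for Cd40, -1.56 for Ncmap, -1.20 for Endod1 and -1.19 for Fchsd2, a comparison that shares the sgSmad2 libraries with the first. It differed from sgSmad3 alone by -0.25 to 0.42. Calls were lost without single libraries, while the directions held. Leaving out any 1 of the 8 libraries ended the calls of Acsl6 (adjusted p of 0.060 to 0.33), Cd40 (0.086 to 0.35), Endod1 (0.060 to 0.40) and Fchsd2 (0.090 to 0.40), and Ncmap stayed called only without sgSmad2 replicate 1 (0.044, and up to 0.54 otherwise). In these fits the lone library of a group is assumed to vary like the other groups. The log2 differences themselves held their sign and lay between -1.57 and -1.50 for Acsl6, -1.78 and -1.53 for Cd40, -1.93 and -1.08 for Ncmap, -1.37 and -1.14 for Endod1, and -1.16 and -1.04 for Fchsd2.

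**Figure D2:**
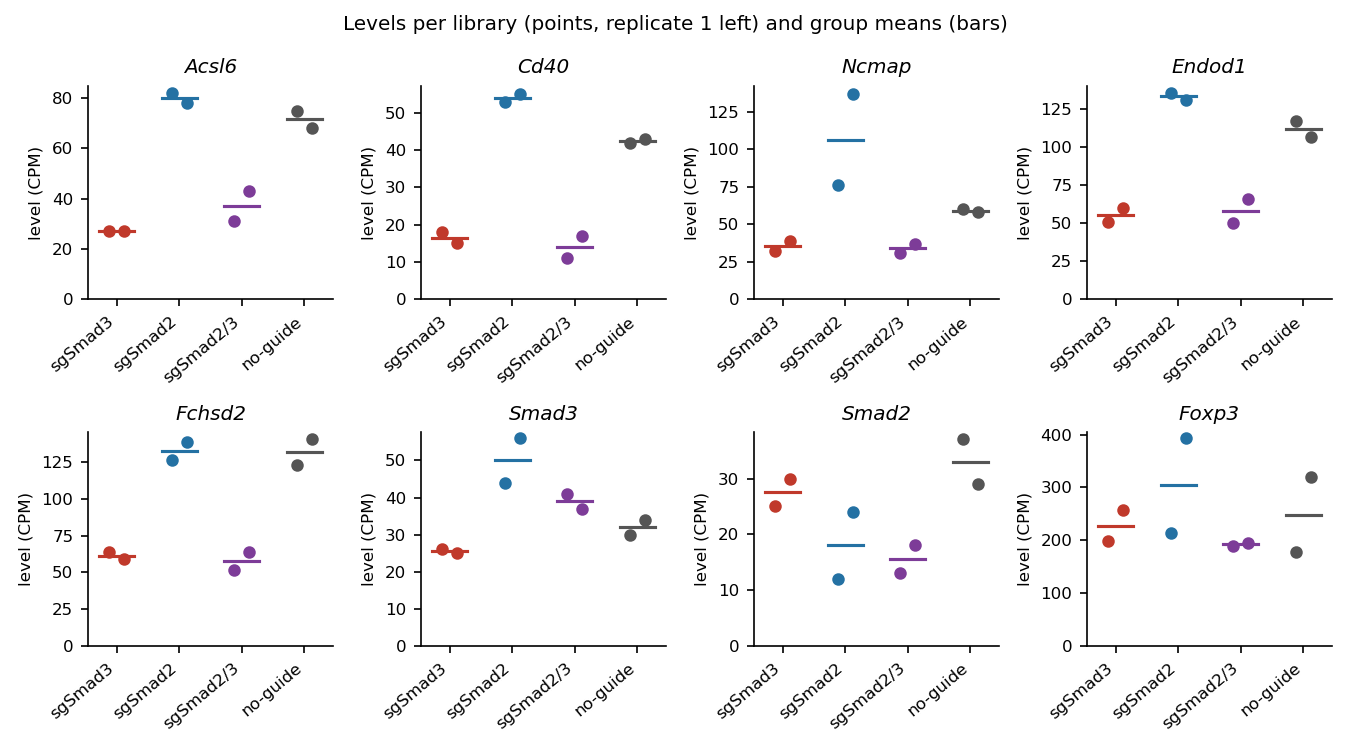
CPM in each library (points, replicate 1 left of replicate 2) and group mean (bars) for the 5 called genes, Smad3, Smad2 and Foxp3, with each vertical axis starting at 0. In the 5 called genes the sgSmad3 and sgSmad2/3 libraries lie below the sgSmad2 and no-guide libraries, while for Foxp3 the groups overlap.

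The promoters of the called genes are shown because the question is which SMAD acts on these genes, although the RNA levels say nothing of binding. In the RefSeq promoter table (GRCm38.p6, from 250 bases before to 50 after a start), 3 of the 5 called genes have windows. Acsl6 on chromosome 11 (54303805 to 54364756) has 3, Ncmap on chromosome 4 (135369576 to 135398240) has 2 and Fchsd2 on chromosome 7 (101108499 to 101284405) has 1. Cd40 on chromosome 2 (165055614 to 165071654) and Endod1 on chromosome 9 (14353990 to 14381242) are named only. The motifs searched on both strands were the SMAD palindrome GTCTAGAC, and the SMAD element CAGACA. They also included the GC-rich SMAD site GGCGC. A further GC-rich site was GGCCG, which can overlap with that one. The last was the AP-1 site TGAGTCA, and a reverse complement counts as a match for each. Windows of Acsl6 and Ncmap, the 2 called genes with the largest difference that have one, are given where a motif occurs, 5′ to 3′ for the strand listed, with the motifs or their reverse complements in capitals. Acsl6 window 1 is chr11:54303574-54303873 (+) and window 2 is chr11:54303954-54304253 (+), and Ncmap window 1 is chr4:135385623-135385922 (-) and window 2 is chr4:135398178-135398477 (-).
Acsl6 window 1: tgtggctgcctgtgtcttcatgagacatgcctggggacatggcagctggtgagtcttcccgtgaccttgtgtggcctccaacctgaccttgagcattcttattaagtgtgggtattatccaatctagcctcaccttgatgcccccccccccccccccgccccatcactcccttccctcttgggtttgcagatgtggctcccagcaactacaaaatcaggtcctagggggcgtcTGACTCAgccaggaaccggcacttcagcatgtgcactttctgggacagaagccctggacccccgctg
Acsl6 window 2: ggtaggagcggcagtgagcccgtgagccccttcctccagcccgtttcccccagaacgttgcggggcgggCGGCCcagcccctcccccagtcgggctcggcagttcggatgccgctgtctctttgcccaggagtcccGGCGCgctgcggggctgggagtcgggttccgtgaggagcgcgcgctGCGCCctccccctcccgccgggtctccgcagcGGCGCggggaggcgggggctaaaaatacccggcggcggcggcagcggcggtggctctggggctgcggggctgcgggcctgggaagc
Ncmap window 1: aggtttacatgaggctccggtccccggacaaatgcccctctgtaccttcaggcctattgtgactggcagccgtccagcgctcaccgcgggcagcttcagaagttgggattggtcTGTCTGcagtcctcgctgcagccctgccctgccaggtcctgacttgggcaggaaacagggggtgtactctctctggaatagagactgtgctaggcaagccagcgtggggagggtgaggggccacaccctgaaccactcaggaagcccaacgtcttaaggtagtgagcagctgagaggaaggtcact
Ncmap window 2: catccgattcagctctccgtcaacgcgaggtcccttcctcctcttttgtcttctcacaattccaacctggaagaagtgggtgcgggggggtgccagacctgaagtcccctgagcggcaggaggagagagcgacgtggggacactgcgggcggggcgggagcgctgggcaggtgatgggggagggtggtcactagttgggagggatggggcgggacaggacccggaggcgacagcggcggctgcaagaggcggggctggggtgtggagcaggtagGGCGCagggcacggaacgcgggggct
Acsl6 window 1 holds 1 AP-1 site, a motif in 5.20% of the 32851 windows of the table. Acsl6 window 2 holds 3 GGCGC and 1 GGCCG in a sequence of 76% G and C, and these motifs occur in 36.9% and 35.2% of all windows. Ncmap window 1 holds 1 CAGACA element (21.0% of all windows) and window 2 holds 1 GGCGC. The third Acsl6 window, chr11:54314653-54314952, has none of the motifs. The Fchsd2 window, with 82% G and C, has 3 GGCGC and 9 GGCCG, where overlapping matches on both strands are counted separately. None of the 6 windows has the palindrome, which is in 0.213% of all windows. A match describes these letters and is no evidence of a site.

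The 5 genes with the lowest p among those not called lower are given as values. Src, a tyrosine kinase, had 1 and 0 CPM with sgSmad3, against 9 and 16 CPM with sgSmad2, with 4 and 2 CPM with sgSmad2/3 and 6 and 8 CPM without a guide (adjusted p = 0.069). It entered the test through the sgSmad2 libraries alone, so it had to be lower with sgSmad3. Ubash3b, a phosphatase that restrains T cell receptor signalling, had 58 and 57 CPM with sgSmad3, against 148 and 113 CPM with sgSmad2, with 40 and 66 CPM with sgSmad2/3 and 147 and 121 CPM without a guide (log2 difference -1.16, adjusted p = 0.15). Rdh10, which makes retinal for retinoic acid synthesis, had 38 and 34 CPM with sgSmad3, against 79 and 73 CPM with sgSmad2, with 38 and 30 CPM with sgSmad2/3 and 64 and 81 CPM without a guide (-1.06, adjusted p = 0.15). Both genes showed the order of the called genes, with every library carrying a Smad3 guide below every library without one. They too were chosen by their p between the single guides, which builds in part of that order. The uncharacterised gene 1110032F04Rik had 13 and 19 CPM with sgSmad3, against 49 and 39 CPM with sgSmad2, and the ribosomal protein gene Rpl36 had 149 and 192 CPM with sgSmad3, against 356 and 271 CPM with sgSmad2 (each adjusted p = 0.15). Reads of Rpl36 may be shared with its processed copies. For these 2 genes the double-guide libraries lay nearer the no-guide libraries than the sgSmad3 libraries did.

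In the other direction, the 10 genes with the lowest p had adjusted p-values of 0.15 to 0.24. Nup93, a nuclear pore protein, had 258 and 213 CPM with sgSmad3, against 106 and 139 CPM with sgSmad2, with 157 and 161 CPM with sgSmad2/3 and 99 and 121 CPM without a guide (log2 difference 0.94, adjusted p = 0.15). Neurl1b, a ubiquitin ligase, had 321 and 295 CPM with sgSmad3, against 112 and 166 CPM with sgSmad2, with 237 and 203 CPM with sgSmad2/3 and 108 and 185 CPM without a guide (1.17, adjusted p = 0.15). In both genes the double-guide libraries lay between the sgSmad3 and sgSmad2 libraries. The others were Rab24, a small GTPase (log2 difference 0.78), Sumo3, a ubiquitin-like modifier (0.99), Farsa, a subunit of phenylalanyl-tRNA synthetase (0.74), and the calcium-binding proteins S100a6 (0.70) and S100a4 (0.84). The list closes with Traip, a ubiquitin ligase of the replication fork (1.30), Hist1h3a, a histone H3 gene (1.95), and Ska1, a kinetochore protein (0.87). Histone genes are nearly identical copies, so reads of Hist1h3a are uncertain. Not every low value was near the no-guide level. S100a4 had 258 and 179 CPM with sgSmad3, against 128 and 112 CPM with sgSmad2, with 146 and 125 CPM with sgSmad2/3 and 229 and 188 CPM without a guide, and Rab24 had 213 and 171 CPM with sgSmad3, against 110 and 112 CPM with sgSmad2, with 144 and 138 CPM with sgSmad2/3 and 162 and 159 CPM without a guide.

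**Figure D3:**
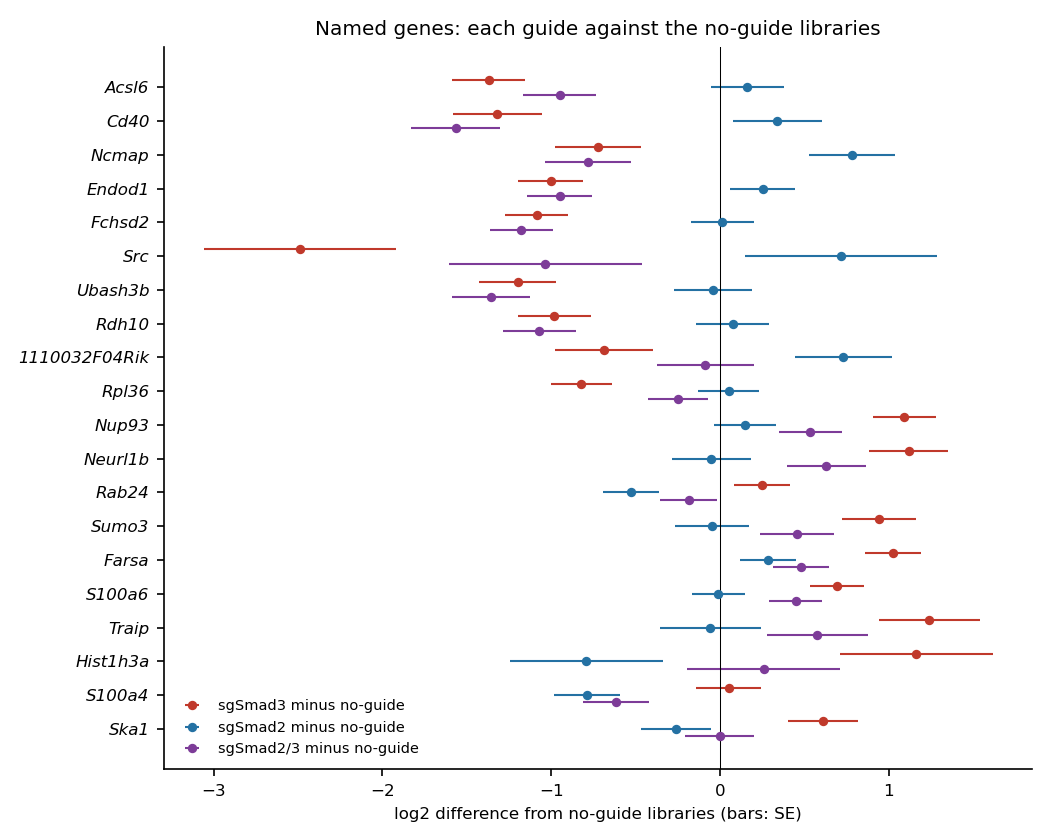
Log2 difference from the no-guide libraries (horizontal axis, points with SE bars) of sgSmad3, sgSmad2 and sgSmad2/3 for the 20 genes with the lowest p between sgSmad3 and sgSmad2, 10 in each direction. The 3 guides share the 2 no-guide libraries. In the 5 called genes at the top the sgSmad3 and sgSmad2/3 points lie between -1.57 and -0.72 and the sgSmad2 points between 0.01 and 0.78.

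Against the no-guide libraries, which serve every guide, 10 genes were called with sgSmad3 (0.0979%), 6 higher (0.0588%) and 4 lower (0.0392%). With sgSmad2 the number was 1 (0.00979%), and with sgSmad2/3 it was 56 (0.548%). That 1 gene was Myo6, which encodes the motor protein myosin VI and was named after its values were seen. Myo6 had 180 and 171 CPM with sgSmad3, against 159 and 183 CPM with sgSmad2, with 204 and 283 CPM with sgSmad2/3 and 69 and 70 CPM without a guide. It rose by 1.32 with sgSmad3 (adjusted p = 0.020), by 1.28 with sgSmad2 (adjusted p = 0.030) and by 1.78 with sgSmad2/3 (adjusted p = 1.5e-04) on the log2 scale. The difference of sgSmad3 from sgSmad2 was 0.04, with a 95% interval from -0.35 to 0.43. The calls with sgSmad3 that fell were Acsl6, Fchsd2, Diaph2, a formin, and Eif4a2, an RNA helicase of translation initiation, and those that rose were Myo6, Itgb3, Nup93, Farsa, Ms4a6b and Gm23639. Diaph2 had 131 and 114 CPM with sgSmad3, against 206 and 198 CPM with sgSmad2, with 95 and 98 CPM with sgSmad2/3 and 239 and 235 CPM without a guide. Leaving out single libraries gave 0 to 14 calls for sgSmad3, 0 for sgSmad2 and 4 to 66 for sgSmad2/3. For sgSmad3 no call was left without either no-guide library, either sgSmad2/3 library or sgSmad3 replicate 1, and 4 were left without sgSmad3 replicate 2. For sgSmad2/3 there were 4 without either of its own libraries, 13 without no-guide replicate 1 and 10 without no-guide replicate 2.

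Some genes called with the double guide were not called between the single guides. Id2, an inhibitor of basic helix-loop-helix factors, had 215 and 220 CPM with sgSmad3, against 196 and 219 CPM with sgSmad2, with 619 and 548 CPM with sgSmad2/3 and 185 and 204 CPM without a guide. Its difference between sgSmad3 and sgSmad2 was 0.07, with a 95% interval from -0.26 to 0.40. Itgb3, the integrin beta 3 chain, had 44 and 42 CPM with sgSmad3, against 34 and 56 CPM with sgSmad2, with 88 and 106 CPM with sgSmad2/3 and 14 and 15 CPM without a guide (difference between the single guides -0.02, 95% interval -0.55 to 0.51). Gzmb, a cytotoxic granule protease, had 19 and 11 CPM with sgSmad3, against 25 and 20 CPM with sgSmad2, with 95 and 76 CPM with sgSmad2/3 and 14 and 10 CPM without a guide (-0.59, 95% interval -1.23 to 0.05). In all 3 genes the double guide stood above both single guides, and for Gzmb the sgSmad3 libraries lay below the sgSmad2 libraries without overlap. The 3 were named after their values were seen, and a p that misses the threshold does not show that the guides act alike.

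The genes that the double guide moved were then read in the single guides, since sgSmad3 against sgSmad2 shares no library with sgSmad2/3 against no guide. Both differences came from 1 fit, with the same estimate of spread for a gene. A gene with a small spread passes more easily in both, so the shares at unadjusted p are not independent of how the genes were chosen. Of the 31 genes called lower with sgSmad2/3 (0.304% of those tested), 23 lay lower with sgSmad3 than with sgSmad2, which is 74.2% against 47.1% of all genes. At unadjusted p, 18 of the 31 were lower (58.1%, against 4.09% of all genes) and 1 was higher, and 3 (Cd40, Endod1 and Fchsd2) were called. Their median log2 difference was -0.43. Among them, the ectoenzyme gene Cd38 entered the test through the sgSmad2 libraries alone and so had to be lower with sgSmad3. Without it, 22 of 30 lay lower (73.3%), 17 were lower at unadjusted p (56.7%) and the median was -0.42. A member named after its values were seen is Nt5e, the ectoenzyme CD73, with 41 and 39 CPM with sgSmad3 against 68 and 62 CPM with sgSmad2. The 1 member at unadjusted p in the other direction was Tjp1, a tight junction protein, with 25 and 22 CPM with sgSmad3 against 15 and 14 CPM with sgSmad2. Of the 25 genes called higher with sgSmad2/3 (0.245%), 13 lay higher and 12 lower with sgSmad3 than with sgSmad2, with a median of 0.0091. The share of the 31 that lay lower was 80.6% without sgSmad3 replicate 1 and 74.2% to 77.4% without the other single libraries of the comparison. The share of all genes was 45.7% and 46.5% to 52.3% in the same fits. Over all 10211 genes the 2 differences correlated at r = 0.257 (Spearman rho 0.269), given as a description since genes share the 8 libraries' culture and preparation.

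The Treg and Th0 libraries, which share nothing with the guides, give the change of each gene with TGF-beta in the culture. All 5 called genes were higher in Treg than in Th0 cells, by log2 4.54 for Cd40, 2.87 for Ncmap, 2.47 for Endod1, 2.07 for Acsl6 and 1.89 for Fchsd2. Over the 14165 genes of that table, 423 (2.99%) were called higher and 347 (2.45%) lower in Treg cells, and among the 10162 genes tested in both tables, these shares were 3.88% and 2.85%. Acsl6 had 23.7, 56.7 and 62.7 CPM in Treg libraries, against 8.48, 11.1 and 9.80 CPM in Th0 libraries, and its adjusted p of 0.0061 became 0.068 without Treg replicate 2 and 0.067 without Treg replicate 3. Cd40 had 29.1, 36.7 and 50.9 CPM in Treg libraries, against 0, 1.11 and 1.22 CPM in Th0 libraries. Fchsd2 had 122, 132 and 110 CPM in Treg libraries, against 37.1, 25.5 and 34.3 CPM in Th0 libraries. None of the Treg and Th0 libraries of these 3 genes overlapped. In the naive CD4 T cell libraries of that set Fchsd2 stood at 107, 123 and 141 CPM, near its Treg level. The naive means of the other called genes were 0 CPM for Acsl6, 0.826 for Cd40, 9.30 for Ncmap and 13.1 for Endod1. The 5 genes were thus not alike in their change from naive cells.

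With the 5 called genes included, 67 of the 415 genes lower with sgSmad3 at unadjusted p were higher in Treg cells (16.1%) and 5.06% were lower. Genes that reached the filter level in 1 guide only had their direction fixed in advance. Without them, 62 of the 67 remained, while all genes lower at unadjusted p fell from 418 to 387. These 62 were 16.1% of the 385 genes left that were higher in Treg cells. Of all genes left, 3.86% were lower at unadjusted p. Among the genes higher with sgSmad3 at unadjusted p, 3.95% were higher and 3.39% lower in Treg cells, near the 3.88% and 2.85% of all genes. Read the other way, the 394 genes higher in Treg cells had a median log2 difference of -0.089 between the guides, and 58.9% lay lower with sgSmad3, against 47.1% of all genes. Of the 394, 9 entered the test through 1 guide only. Without such genes, 226 of 385 lay lower (58.7%, against 46.9% of all genes left), with a median of -0.087. The share of the 394 was 51.0% without sgSmad2 replicate 2 (all genes 46.5%) and 54.6% without sgSmad3 replicate 1 (all genes 45.7%). It was 59.1% without sgSmad3 replicate 2 (all genes 48.4%) and 67.8% without sgSmad2 replicate 1 (all genes 52.3%). The 290 genes lower in Treg cells had a median of 0.0023. Over all genes the 2 differences were almost unrelated (r = -0.059, rho -0.037).

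**Figure D4:**
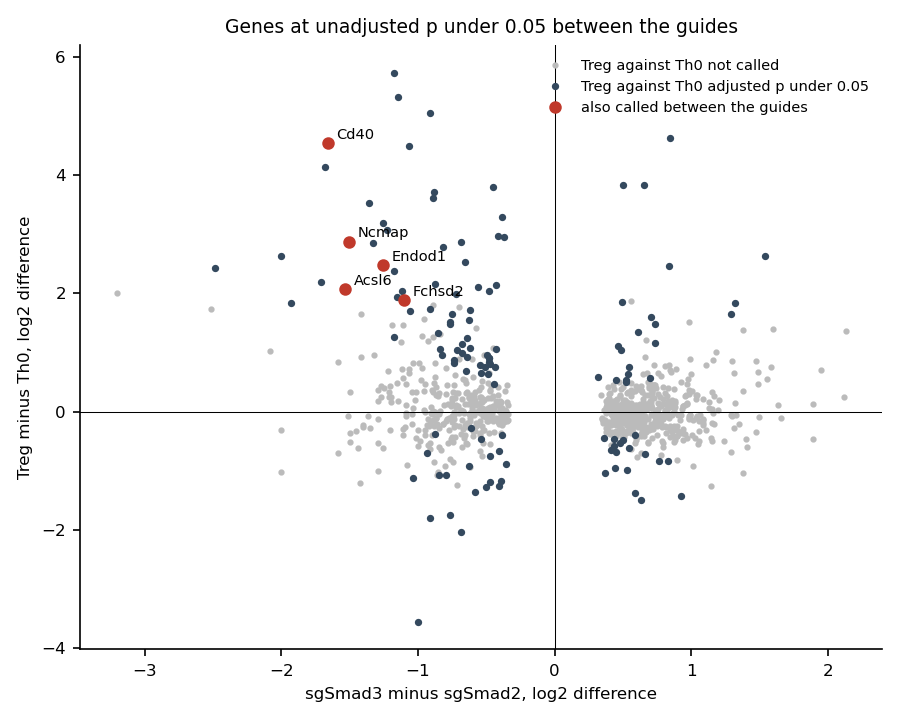
Log2 difference of sgSmad3 minus sgSmad2 (horizontal axis) against Treg minus Th0 in other libraries (vertical axis) for the genes at unadjusted p under 0.05 between the guides, so the empty middle is made by that choice. The 5 called genes, in red, lie in the upper left, between 1.89 and 4.54 on the vertical axis, and dark points passed the test between Treg and Th0.

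The TGF-beta pathway itself was read by role, in lists whose counts are set beside the 5.22% higher and 4.09% lower at unadjusted p over all genes. Of the 6 SMAD genes tested, none was called, and Smad3 alone passed the unadjusted level. Smad4, the common partner, had 67 and 70 CPM with sgSmad3, against 75 and 86 CPM with sgSmad2. Among 15 receptors, ligands and activators, 0 were called, 2 were lower at unadjusted p and the median was -0.047. These were Bmpr2, a BMP receptor (26 and 27 CPM with sgSmad3, against 38 and 44 CPM with sgSmad2), and Furin, the protease that matures TGF-beta (163 and 109 CPM with sgSmad3, against 198 and 176 CPM with sgSmad2). Among 24 feedback and target genes, 0 were called, 5 were lower and 0 higher at unadjusted p, 17 lay below 0, and the median was -0.18. It was -0.082 without sgSmad3 replicate 1, -0.041 without sgSmad2 replicate 2 and -0.41 without sgSmad2 replicate 1, and the median of the receptor list was above 0 without sgSmad3 replicate 1 (0.19) and without sgSmad2 replicate 2 (0.064).

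Within those targets, Camk2n1, an inhibitor of the kinase CaMKII, had 86 and 67 CPM with sgSmad3, against 132 and 218 CPM with sgSmad2, with 75 and 78 CPM with sgSmad2/3 and 134 and 212 CPM without a guide (log2 difference -1.15, adjusted p = 0.19). Itgae, the integrin chain CD103 that anchors T cells to epithelium, had 18 and 26 CPM with sgSmad3, against 37 and 58 CPM with sgSmad2, with 16 and 16 CPM with sgSmad2/3 and 39 and 36 CPM without a guide (-1.06, adjusted p = 0.29). Both showed the pattern of the called genes without passing the test. Each was named for a low p within its list, so part of that pattern is built in. The other 3, named after their values were seen, were the ubiquitin ligase Smurf1 (-0.54), the transcription factor Klf10 (-0.58) and Pmepa1, a feedback inhibitor of the pathway (-0.39). Pmepa1 had 529 and 504 CPM with sgSmad3, against 637 and 716 CPM with sgSmad2, with 343 and 381 CPM with sgSmad2/3 and 647 and 662 CPM without a guide, so the double guide was the lowest. The feedback inhibitors Smad7 (-0.02) and Skil (-0.23) did not pass the unadjusted level. Smad4, Smad7 and Skil were also named after their values were seen, and Camk2n1 had entered the target list for its level in the Treg libraries.

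Genes of Treg identity were read next, and none was called. Of 26 Treg core genes, 6 were lower and 0 higher at unadjusted p, 20 lay below 0, and the median was -0.28 (-0.15 without sgSmad2 replicate 2 and -0.43 without sgSmad2 replicate 1). Gpr83, a receptor marking Treg cells, had 30 and 35 CPM with sgSmad3, against 60 and 70 CPM with sgSmad2, with 43 and 45 CPM with sgSmad2/3 and 41 and 52 CPM without a guide (log2 difference -0.98, adjusted p = 0.20). The double guide therefore stood near the no-guide level for this gene, unlike Itgae. The remaining 4, named after their values were seen, were Nt5e (-0.69), the inhibitory receptor Ctla4 (-0.70), the transcription factor Ikzf2 (-0.49) and the co-receptor Nrp1 (-0.62). The summed CPM of the 30 core genes overlapped between the guides, at 5784 and 6232 with sgSmad3 and 5998 and 7590 with sgSmad2. In a bulk culture fewer cells of a type and less RNA per cell cannot be told apart.

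Other T cell lists gave small counts. Among 13 tissue Treg genes, 2 were lower at unadjusted p, Itgae and Batf, an AP-1 family factor (11 and 5 CPM with sgSmad3, against 17 and 16 CPM with sgSmad2). Among 12 T helper factors and cytokines, 4 were lower and 0 higher, led by the chains of the IL-18 receptor. Il18r1 had 51 and 59 CPM with sgSmad3, against 94 and 87 CPM with sgSmad2, with 45 and 66 CPM with sgSmad2/3 and 95 and 104 CPM without a guide, and Il18rap differed by log2 -1.08. Il7r, the IL-7 receptor chain of resting T cells, had 47 and 36 CPM with sgSmad3, against 59 and 68 CPM with sgSmad2. Cd69, an activation marker that holds cells in tissue, had 244 and 268 CPM with sgSmad3, against 377 and 340 CPM with sgSmad2. Neither pair of groups overlapped, and neither gene was called (each adjusted p = 0.41).

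Acyl-CoA synthetases were the one list with a called member. Of 11 tested, Acsl6 was called and 2 were lower at unadjusted p, with a median of -0.16, which was -0.43 without sgSmad2 replicate 1. The second was Acsbg1, a very-long-chain acyl-CoA synthetase, with 46 and 46 CPM with sgSmad3, against 54 and 86 CPM with sgSmad2, with 35 and 31 CPM with sgSmad2/3 and 69 and 63 CPM without a guide. Its log2 difference of -0.56 did not pass the test (SE 0.232, adjusted p = 0.48), and all 4 libraries with a Smad3 guide lay below all 4 without one. No other lipid gene of the lists was called. Of 27 cholesterol synthesis genes, 4 were higher and 0 lower at unadjusted p with a median of 0.19, among them Srebf2, the master regulator, with 406 and 375 CPM with sgSmad3, against 201 and 309 CPM with sgSmad2. Srebf2 had 352 and 324 CPM with sgSmad2/3 and 252 and 287 CPM without a guide. The cholesterol median was 0.10 without sgSmad3 replicate 1. Against the no-guide libraries the cholesterol median was -0.011 with sgSmad3 and -0.20 with sgSmad2. Of 29 glycerolipid synthesis genes, 3 were higher and 1 lower with a median of 0.17, and Agpat2, an acyltransferase, had 22 and 20 CPM with sgSmad3, against 14 and 10 CPM with sgSmad2. Agpat2 had 24 and 23 CPM with sgSmad2/3 and 22 and 18 CPM without a guide, so the sgSmad2 libraries were the low ones. Against the no-guide libraries the glycerolipid median was 0.17 with sgSmad3 and 0.018 with sgSmad2. The glycerolipid median was 0.093 without sgSmad2 replicate 1, and 0.26 without sgSmad3 replicate 2 and 0.31 without sgSmad2 replicate 2. Fatty acid synthesis (20 genes, median -0.013) and fatty acid oxidation (26 genes, median 0.0078) stood near the median of all genes, and these 2 medians turned in sign in 4 and 5 of the 18 alternatives.

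Of 45 cytosolic ribosomal protein genes, none was called, 17 were lower and 0 higher at unadjusted p, 40 lay below 0, and the median log2 difference was -0.30. In 24 of the 45 the sgSmad3 libraries lay wholly below the sgSmad2 libraries, a pattern shown by 15.4% of all genes. Their CPM summed to 36329 and 36682 with sgSmad3, against 45103 and 39635 with sgSmad2, with 39137 and 38318 with sgSmad2/3 and 45813 and 43142 without a guide. Rps16 had 230 and 272 CPM with sgSmad3, against 434 and 344 CPM with sgSmad2, with 343 and 283 CPM with sgSmad2/3 and 378 and 370 CPM without a guide (log2 difference -0.63, adjusted p = 0.29). The median was -0.19 without sgSmad3 replicate 1 and -0.18 without sgSmad2 replicate 1. These genes have many processed copies in the genome, so their reads are uncertain.

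Genes of cell division gave positive medians without a call. Of 26 DNA replication genes, 4 were higher and 0 lower at unadjusted p, 14 lay wholly above in sgSmad3, a pattern shown by 16.7% of all genes, and the median was 0.24. Tk1, a thymidine kinase, had 135 and 122 CPM with sgSmad3, against 60 and 105 CPM with sgSmad2, with 122 and 128 CPM with sgSmad2/3 and 69 and 105 CPM without a guide, and Prim1, a primase subunit, had 47 and 47 CPM with sgSmad3, against 34 and 26 CPM with sgSmad2. The summed replication genes stood at 3785 and 3853 CPM with sgSmad3, against 3161 and 3266 CPM with sgSmad2, with 3789 and 3636 CPM with sgSmad2/3 and 3016 and 2901 CPM without a guide. The groups with a Smad3 guide were the higher ones. Of 25 mitosis genes, 4 were higher and 0 lower, with a median of 0.14 (0.076 without sgSmad3 replicate 2), and Plk1, a mitotic kinase, had 296 and 322 CPM with sgSmad3, against 214 and 218 CPM with sgSmad2, with 290 and 270 CPM with sgSmad2/3 and 165 and 203 CPM without a guide.

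The integrated stress response, the programme led by Atf4, had a median of 0.28 over 16 genes, with 2 higher and 2 lower at unadjusted p. That median was 0.12 without sgSmad3 replicate 1 and 0.49 without sgSmad3 replicate 2. Its amino acid transporter chain Slc3a2 had 185 and 185 CPM with sgSmad3, against 85 and 159 CPM with sgSmad2. All 7 genes of the mitochondrial genome that were tested lay above 0, with a median of 0.23 and 2 higher at unadjusted p. This median was 0.064 without sgSmad3 replicate 1, the library in which these genes were highest, and 0.53 without sgSmad3 replicate 2. For mt-Nd4 the 4 values were 6204 and 3181 CPM with sgSmad3, against 2703 and 2909 CPM with sgSmad2. Oxidative phosphorylation (65 genes, median -0.086), glycolysis (22 genes, 0.085), hypoxia response (18 genes, -0.17), interferon response (32 genes, -0.021), immediate early genes (15 genes, -0.052) and p53 targets (21 genes, 0.12) had at most 5 members at unadjusted p in a direction and none called. The same held, with at most 3 members, for granzymes and cytotoxic genes (8 genes, median -0.25), naive and quiescence genes (26, -0.10), chemokine receptors and homing (17, -0.063), checkpoint and costimulatory receptors (15, -0.061), IL-2 receptor and STAT5 targets (18, -0.096), T cell receptor signal genes (21, 0.013), MHC class I (17, 0.12) and Myc with ribosome biogenesis (25, -0.063). The medians of glycolysis, interferon response, immediate early genes, p53 targets, naive genes, checkpoint receptors, T cell receptor signal genes and MHC class I turned in sign in 1 to 3 alternatives.

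**Figure D5:**
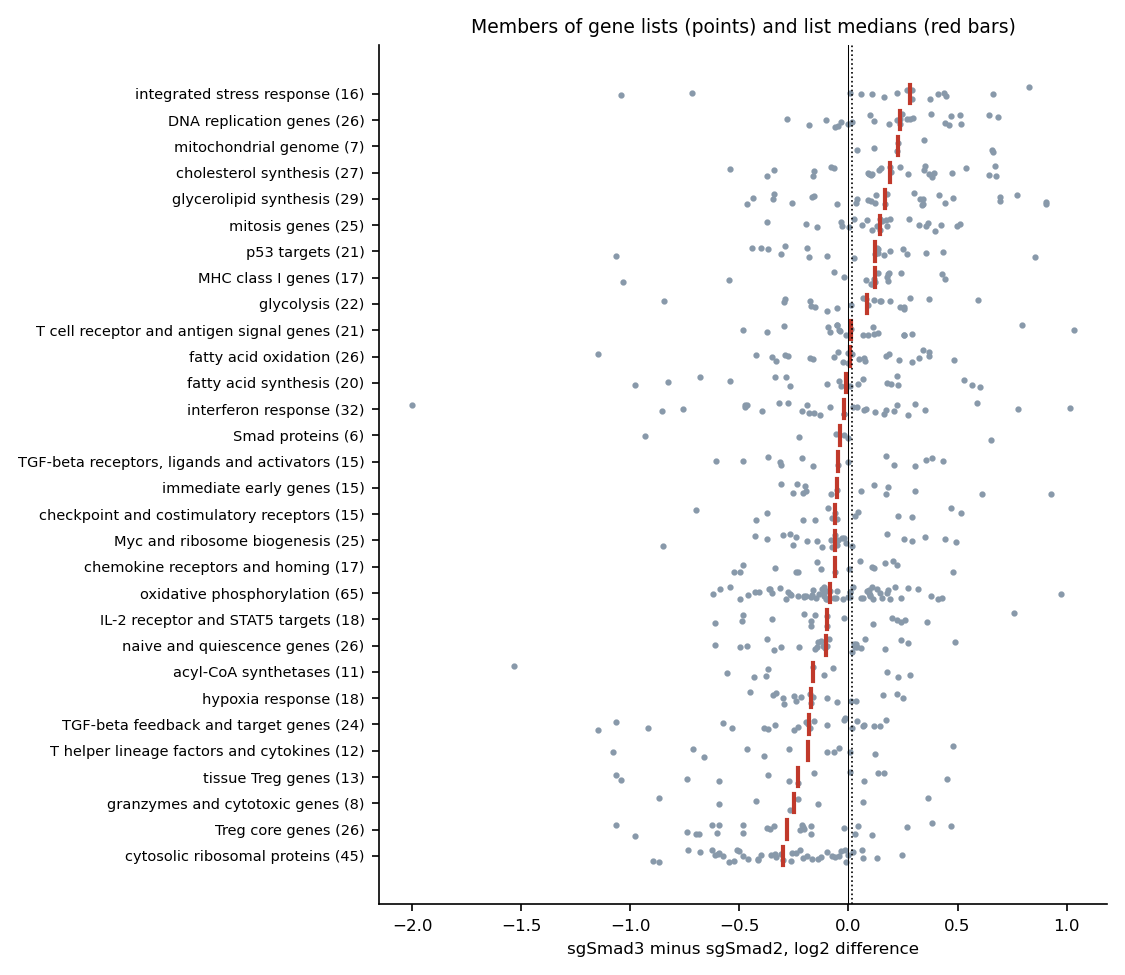
Log2 difference of sgSmad3 minus sgSmad2 (horizontal axis) for each tested member (points) of 30 gene lists, with list medians as red bars and the number of members tested in parentheses, the solid line at 0 and the dotted line at the median of all genes. List medians lie between -0.30 and 0.28 and shift with single libraries, and Acsl6 lies apart at -1.53 among the acyl-CoA synthetases.

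Other cell types left traces in the libraries besides the B cell and myeloid markers given with Cd40. S100a8 and S100a9, genes of neutrophils, stood at 19 and 25 CPM in sgSmad3 replicate 1 and at 27 and 27 CPM in sgSmad2/3 replicate 2. The 10 markers of CD8, NK and gamma-delta T cells summed to 89 and 79 CPM with sgSmad3, against 77 and 94 CPM with sgSmad2, with 91 and 89 CPM with sgSmad2/3 and 69 and 59 CPM without a guide, most of it Tcrg-C1, with Ncr1 at 0 throughout. The 6 red cell markers summed to 87 and 33 CPM with sgSmad3, against 26 and 24 CPM with sgSmad2, with 70 and 144 CPM with sgSmad2/3 and 19 and 13 CPM without a guide, with Alas2 at 0 throughout. The 4 libraries with a Smad3 guide were thus the highest in red cell markers. Hbb-bs, a beta globin gene that shares reads with its copy, had 42 and 6 CPM with sgSmad3, against 3 and 3 CPM with sgSmad2, and it entered the test through the sgSmad3 libraries alone. The part of red cell and myeloid transcripts in the differences was not tested.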

How the data were processed

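Per the file headers and values, the deposited guide table holds scores: CPM (reads per 1000000 counted reads, not divided by gene length) that the authors rounded to whole numbers, so a low value is known to the nearest 1 CPM. Its unnamed last line, which is not a gene, was read as the CPM of 1 read and gave the depths of 1294583 to 1602297 reads. The deposited cell-type table, also named TPM, holds unrounded values by the authors that were read as CPM. Its whole reads could be recovered for 100% of values (tolerance 0.01). Per the submitters' processing notes, STAR 2.7.9a, Subread 2.0.1 and the mm10 build were used. The strand setting is not given in the sources used here, so antisense partners cannot be told apart. The reference table named 55154 of the 55421 IDs, and 27 symbols stored as dates were restored.

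All 8 guide libraries entered 1 fit in limma 3.58.1 (R 4.3.3) on log2(CPM + 1), with an intensity trend, group as the only term and Benjamini-Hochberg adjustment over 10211 genes. The same test compared Treg with Th0 among 9 libraries of the cell-type table, 3 of them naive, over genes at 1 CPM or more in at least 3. edgeR 4.0.16 on its whole reads was an alternative, and others changed the pseudocount, filter, scaling, trend, libraries and block. The steps were also run on simulated reads with the same spread for all genes and independent libraries. That run does not measure error rates in these data. Motifs were searched in RefSeq promoters (GRCm38.p6).

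Named genes were Smad2, Smad3, Acsl6, Acsbg1 and Foxp3, the called genes, the genes with the lowest p up to 10 in each direction, and the 2 members with the lowest p in each list. Members and lists were chosen with earlier results of these data known, and Cdh1, Camk2n1, Cx3cr1 and Ctsw joined the TGF-beta targets for their Treg level in the cell-type libraries. Some genes are not reported here. Not used here were the ATAC libraries and the RNA libraries on Acsbg1.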

Additional observations from a re-analysis of the deposited data

How the results depend on the processing

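The 5 calls between sgSmad3 and sgSmad2 kept their direction in all 18 alternatives. Many of these, such as a change of filter or trend, could not alter a difference. The number of calls moved. It was 3 with a pseudocount of 0.5, 3 with a minimum of 10 CPM and 3 with a filter on the mean over 8 libraries, which in each case were Acsl6, Cd40 and Endod1. It was 1 without the intensity trend, where none of the 5 was called, and 0 without a filter (760 higher and 835 lower at unadjusted p in limma) or with only the 2 groups in the fit (273 higher and 264 lower). Leaving out 1 library gave 0 to 2 calls. A pseudocount of 5, quantile scaling and median-of-ratios scaling kept all 5.

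The labels do not say whether a replicate number marks a shared source, and the numbers were not taken as pairs. Deviations of same-numbered sgSmad3 and sgSmad2 libraries correlated at 0.058. Those of sgSmad2 and no-guide libraries stood out at 0.268. The other pairs of groups, no-guide included, lay at 0.0082 to 0.040, and Treg with Th0 at 0.0089 to 0.041. With the replicate number as a block, sgSmad3 against sgSmad2 gave 7 calls, adding Src and Neurl1b, and the guides against no guide gave 23 for sgSmad3 (10 without the block), 2 for sgSmad2 (1) and 107 for sgSmad2/3 (56).

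Without a filter, or with 2 groups only, each guide had 0 calls against no guide. Without the intensity trend there were 2 for sgSmad3, 0 for sgSmad2 and 11 for sgSmad2/3. Leaving out 1 library gave 0 to 14, 0 in every case, and 4 to 66 calls in the same order of guides. Treg against Th0 had 770 calls, 453 without the trend, 759 with the block, 1066 in edgeR and 493 to 627 without 1 library. The direction of 3 uncalled genes near 0 changed. Foxp3 lay between -0.798 and 0.0757 without 1 library, Ighm between -0.114 and 0.179 (-0.0029 with quantile scaling), and Tcrg-C1 between -0.335 and 0.314. The cause of these shifts was not tested, and 2 libraries a group limit every test.

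Of the list medians, those of the ribosomal proteins (-0.37 to -0.18), Treg core genes (-0.43 to -0.15), TGF-beta targets (-0.41 to -0.041), DNA replication (0.17 to 0.24) and mitochondrial genome (0.064 to 0.53) kept their sign in all 18 alternatives, and that of the receptors, ligands and activators turned in 3.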
